A study of Mus musculus with 11 samples.

Results

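The broad open regions described here are stretches of at least 4000 bp, each listed as 1 region of accessible chromatin in dopaminergic (DA) and serotonergic (5-HT) neurons of the mouse embryo. They were selected on their width, the end minus the start of a listed region on the mm9 genome, and 109 of the 131942 listed regions passed. All 5 libraries list the same regions, so the 109 regions fill 545 lines of the 5 lists. A region spans the peaks of all libraries, so its width belongs to this union and not to a peak of any particular library, and it is given as a description only.

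Accessible chromatin was mapped by ATAC-seq, in which a transposase inserts sequencing adapters into DNA that is not covered by nucleosomes, to compare DA and 5-HT neurons at embryonic day 14.5. DA neurons were sorted in 3 replicates as GFP-positive cells from the ventral mesencephalon of TH-GFP embryos, a line kept on the C57BL/6J background in which the Th promoter drives GFP. 5-HT neurons were sorted in 2 replicates as YFP-positive cells from rhombomeres 1 to 3 of Mash1-CRE x ROSA YFP embryos. In both cases transgenic males had been mated with Swiss wild-type females, and the replicates were independent sorts of cells from pooled embryos. The line, the brain territory and the cell type differ together between the groups and cannot be told apart. By the paper's account, fewer cells were also sorted for each 5-HT library than for each DA library.

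A library was counted as having a peak at a region if the deposited score there exceeded 0. DA replicates 1, 2 and 3 had 52861, 93055 and 94351 peaks, and 5-HT replicates 1 and 2 had 38772 and 22879. Peak lists do not show the read depth of a library, which is unknown here. No scale is named for the score, so scores are to be read by their rank among the peaks of a library. A region without a peak has no rank there, and median percentiles leave it out. A percentile also depends on the length of the peak list, so percentiles of different libraries are not on the same footing.

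In vertebrate genomes most cytosines followed by a guanine (CpG) are methylated and have been lost over evolution, except in CpG islands, which lie at many promoters and stay unmethylated. Genes of developmental transcription factors often sit in unusually large CpG islands, which Polycomb and Trithorax proteins can bind over their whole length. Lmx1b and En1, a LIM homeobox gene and an engrailed homeobox gene, are required for the development or survival of midbrain DA neurons, and Lmx1b is also needed for 5-HT neurons.

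The widest of the broad regions were CpG-poor, and most of the CpG-rich ones were promoters. Their width ranged from 4020 to 28148 bp with a median of 5269 bp, against a median of 340 bp over all regions. There were 50 regions of less than 5000 bp and 14 of at least 10000 bp. Together they covered 742392 bp. The broad regions with a peak in a library made up between 1.32% of the bases of all its regions with a peak in DA replicate 2 and 2.41% in 5-HT replicate 2. The 3 regions just inside the limit lay at the promoters of Klf6 (4020 bp), Bbx (4036 bp) and Nol4 (4036 bp), with scores of 8.61, 7.35 and 7.43 in DA replicate 1 and 5.80, 4.86 and 4.48 in 5-HT replicate 2. The 3 regions just outside it were at Gm10354 (3993 bp), 5031425E22Rik and Mll5 (3967 bp) and 2810030E01Rik (3967 bp), with scores of 4.33, 7.47 and 4.77 in DA replicate 1 and 0, 4.26 and 0 in 5-HT replicate 2.

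CpG density was measured by the observed/expected ratio, the number of CpG multiplied by the length and divided by the product of the numbers of C and G. Its median over the broad regions was 0.491, with quartiles of 0.185 and 0.705. The median was 0.242 over all regions, 0.656 over the 2205 regions of 2000 to under 4000 bp and 0.706 over the 13419 regions below 4000 bp that hold a protein-coding transcription start site (TSS), and the ratio of the whole genome was 0.191. Broad regions therefore spread over both ends of the scale. A ratio of at least 0.6 was found in 45 of the 109 regions, against 11.0% of all regions, and a ratio under 0.3 in 40 of the 109, against 61.6% of all regions. The other 24 lay between, and 18 of them held a protein-coding TSS. These limits were chosen after the values had been seen.

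Width and CpG density went in opposite directions. The 50 regions below 5000 bp had a median ratio of 0.678 and a GC content of 57.5%, and 32 of them reached 0.6. All 14 regions of at least 10000 bp had a ratio between 0.0927 and 0.271, with a median of 0.169 and a GC content of 41.1%. The regions with a ratio of at least 0.6 had 6.18 CpG per 100 bp and those under 0.3 had 0.724, as medians, against 0.834 in the whole genome. In windows of 200 bp, a median of 57.2% of the windows of the CpG-rich regions met the usual CpG island limits (GC of at least 50% and ratio of at least 0.6), and 0% in the CpG-poor ones.

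The TSS of a protein-coding transcript of the GENCODE annotation for mm9 lay inside 64 of the 109 broad regions (58.7%), against 10.2% of all regions. Among regions of 2000 to under 4000 bp the number was 1677 of 2205 (76.1%). The 64 regions hold the start of 67 genes. Of the 45 CpG-rich regions 42 held such a TSS, and of the 40 CpG-poor regions 4 did, at Sfi1, Heatr7b1 and Hjurp, Mrgpra3 and Cwc22.

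Where a gene started in a broad region, the region reached further downstream of the TSS than upstream in most cases. Counted from the most upstream TSS in the region, a choice that favours the downstream side, and past the end of the gene where the gene is short, the median extent was 1886.5 bp upstream and 3038 bp downstream, and the downstream side was longer in 47 of 68 pairs of gene and region (Hjurp starts in 2 of the regions). Single-exon genes made up 6 of the 68 pairs, which is 8.82%. They made up 5.87% of 1840 such pairs with a region of 2000 to under 4000 bp at the TSS and 3.02% of 11803 pairs with a narrower region. Counted over the same pairs, the median was 5.5 exons at broad regions and 9 at each of the narrower classes. In 4 cases, Sstr1, Gm17379, 5930403N24Rik and 3110070M22Rik, the whole annotated gene lay in the region, and Adra2a, an adrenergic receptor gene of 1 exon, was covered to 96.0%.

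Developmental transcription factor genes were a minority of the genes at broad regions. The list, made by symbol from 24 families, has 490 annotated genes, of which 9 had a TSS in a broad region, each in a region of its own. These 9 regions are 8.26% of the 109, against 0.277% of all regions, and 14.1% of the 64 regions with a protein-coding TSS, against 6.08% (102 of 1677) in regions of 2000 to under 4000 bp and 2.71% (365 of 13483) over all regions. Seen from the list, 1.84% of the transcription factor genes and 0.267% of the other 21748 protein-coding genes began in a broad region. These values depended on the width limit, since 8 of the 9 regions were narrower than 5000 bp. With a minimum width of 5000 bp, 1 of 59 regions held a transcription factor TSS and 40.7% held a protein-coding TSS. Regions are not replicates, so these shares were not tested.

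The 9 genes were En1, Lmx1b, Pou3f2 and Mkx of the homeobox class, the SOX gene Sox12, the forkhead gene Foxo3, and Klf6, Klf10 and Klf13 of the Krüppel-like class. The widest region was that of Pou3f2, a POU factor of neuronal differentiation, at chr4:22413899-22419554 (5656 bp), which contains 93.6% of this single-exon gene. DA replicates 1, 2 and 3 scored 6.12, 8.80 and 6.49 there, and 5-HT replicates 1 and 2 scored 5.67 and 3.41. A peak was thus present in every library. At En1 (chr1:122495583-122500501, 4919 bp) the scores were 7.66, 8.20 and 7.03 in the DA replicates and 4.95 and 3.84 in the 5-HT replicates. Lmx1b (chr2:33494705-33498900, 4196 bp) had scores of 6.00, 7.62 and 6.01 in the DA replicates, 4.44 in 5-HT replicate 1 and 0 in replicate 2, and was the only gene of the 9 without a peak in every library.

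Sox12 (chr2:152221396-152226025, 4630 bp), a SOX factor of neural progenitors and neurons, had scores of 8.09, 11.5 and 8.88 in the DA and 5.40 and 4.12 in the 5-HT replicates. For Foxo3 (chr10:41994519-41998719, 4201 bp), a forkhead factor controlled by insulin signalling, they were 9.13, 14.4 and 12.8 in the DA and 6.30 and 6.61 in the 5-HT replicates. Krüppel-like factors are widely expressed zinc finger proteins. Klf13 (chr7:71080523-71084952, 4430 bp) scored 7.22, 13.0 and 12.0 in the DA and 5.98 and 6.24 in the 5-HT replicates, and Klf10 (chr15:38228503-38232550, 4048 bp) 8.42, 13.6 and 12.4 in the DA and 6.81 and 4.42 in the 5-HT replicates. Klf6 (chr13:5859755-5863774), with 8.61, 11.6 and 10.0 in the DA and 7.02 and 5.80 in the 5-HT replicates, was the narrowest of all 109 regions. Mkx, a TALE homeobox gene of tendon development, had a region of 4804 bp with scores of 4.54, 4.85 and 5.26 in the DA and 4.85 and 3.32 in the 5-HT replicates.

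The 9 transcription factor regions had a median CpG ratio of 0.690, from 0.575 at Klf6 to 0.833 at Foxo3, and the 55 regions at other protein-coding genes a median of 0.659, from 0.0927 to 0.956. Their median width was 4430 bp against 4789 bp. Ranked within each library, the median peak of the transcription factor regions stood at percentiles of 79.0, 93.3 and 90.7 in the DA and 73.5 and 67.6 in the 5-HT replicates. The values at the other genes were 72.8, 82.5 and 84.4 in the DA and 65.3 and 59.9 in the 5-HT replicates. In narrower regions the order was the other way: transcription factor promoters of 2000 to under 4000 bp had medians of 52.2, 69.5 and 69.6 in the DA and 55.7 and 46.9 in the 5-HT replicates, and all protein-coding promoters of this width 73.2, 85.8 and 85.6 in the DA and 69.7 and 61.5 in the 5-HT replicates.

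By family, 3 of 17 Krüppel-like genes, 1 of 12 LIM, 1 of 14 POU, 1 of 18 TALE, 1 of 61 NK and Dlx-like homeobox, 1 of 18 SOX and 1 of 43 forkhead genes began in a broad region. No gene did so in the HOX (39 genes), PRD and PAX (37), sine oculis (6), other homeobox (18), basic helix-loop-helix (63), T-box (16), GATA (6), Zic and Gli (11), other zinc finger (54), AP-2 (5), EBF (4), MAF (3), TCF/LEF (4), nuclear receptor (22), NFI (4), ETS (11) or EGR (4) lists. Of all protein-coding genes 0.301% began in a broad region, so a count of 0 is not informative for lists of this size. The basic helix-loop-helix list leaves out Mycn (5902 bp), counted with the cell cycle genes, and Mxi1 (4789 bp), on no list. Both code for proteins of this class and began in a broad region. Zfp462 (4106 bp) and Bbx (4036 bp), on no list, also began in a broad region and are not counted as transcription factors here. HOX genes, which set position along the hindbrain and body axis, had a region at the TSS of 5 of 39 genes. The same count was 311 of 490 for the whole transcription factor list and 13599 of 22238 for all protein-coding genes. The widest HOX region, at Hoxd1, measured 752 bp.

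Several families came close to the limit. Otx1, an orthodenticle homeobox gene of the forebrain and midbrain, had a region of 3650 bp and Pax6 of 3196 bp, and the proneural gene Neurog2 of 3514 bp. In the forkhead family Foxa2, a factor of the floor plate and of DA neurons, reached 3852 bp and Foxp2 3119 bp. Among zinc finger genes Zfp703 had 3796 bp, Sall3 3408 bp and Insm1 3173 bp. Nr4a2, the nuclear receptor that switches on DA genes, had 3686 bp, Nr4a3 3177 bp and Egr1 3433 bp. In the remaining lists the widest regions were at Six5 (2276 bp), Zeb1 (3248 bp), Tbx18 (2394 bp), Gata3 (1850 bp), Gli3 (3114 bp), Tcfap2e (805 bp), Ebf3 (2431 bp), Maf (2576 bp), Tcf7l1 (1804 bp), Nfib (3067 bp) and Etv1 (3199 bp). A region of at least 2000 bp lay at the TSS of 109 of the 490 transcription factor genes (22.2%) and of 1779 of the 21748 others (8.18%).

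Broad regions were also found beside transcription factor genes without covering their TSS. Within 10000 bp of such a TSS lay 11 of the 109 regions, the 9 above and 2 more. The same count was not made over all regions, so no comparison is drawn. The first, at chr1:122501328-122506933 (5606 bp), began 2333 bp from the TSS of En1, overlapped the En1 gene and had a CpG ratio of 0.354. Its scores were 4.61, 4.51 and 4.20 in the DA replicates, 4.40 in 5-HT replicate 1 and 0 in replicate 2. The other, at chr2:147862437-147868274 (5838 bp), lay 3410 bp from the TSS of Foxa2 at the start of the processed transcript 9030622O22Rik, with a ratio of 0.456. It scored 4.38, 5.40 and 4.30 in the DA replicates, 4.05 in 5-HT replicate 1 and 0 in replicate 2, so that both regions, like the Lmx1b promoter, had no peak in 5-HT replicate 2, the library with the fewest peaks.

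To show the CpG content of these promoters, 150 bases upstream of 4 transcription factor genes are given from mm9 on the strand of the gene. Each window ends directly before the more upstream of the GENCODE TSS and the RefSeq start, which was placed by an exact match. For Lmx1b and Pou3f2 this was the RefSeq start, and their GENCODE TSS lie further downstream, at 33496031 and 22415480. The windows are chr1:122498845-122498994 for En1 (plus strand), chr2:33496619-33496768 for Lmx1b, chr4:22415514-22415663 for Pou3f2 and chr2:152223783-152223932 for Sox12 (minus strand). They do not overlap any annotated UTR, and CpG are in capitals. There are 9 CpG in the window of En1, 13 in that of Lmx1b, 14 in that of Pou3f2 and 26 in that of Sox12.
En1: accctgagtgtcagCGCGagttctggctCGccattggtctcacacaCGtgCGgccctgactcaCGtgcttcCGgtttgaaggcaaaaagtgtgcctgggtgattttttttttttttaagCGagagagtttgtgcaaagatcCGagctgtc
Lmx1b: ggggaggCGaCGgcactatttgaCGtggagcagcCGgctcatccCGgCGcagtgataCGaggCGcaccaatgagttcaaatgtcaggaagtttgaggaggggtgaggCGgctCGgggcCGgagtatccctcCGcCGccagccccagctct
Pou3f2: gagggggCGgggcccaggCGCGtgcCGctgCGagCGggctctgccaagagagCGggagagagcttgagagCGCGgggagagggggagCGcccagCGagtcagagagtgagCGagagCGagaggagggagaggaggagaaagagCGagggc
Sox12: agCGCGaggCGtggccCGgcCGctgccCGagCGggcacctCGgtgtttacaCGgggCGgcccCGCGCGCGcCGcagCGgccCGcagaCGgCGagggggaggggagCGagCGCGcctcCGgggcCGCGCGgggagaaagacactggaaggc

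Genes outside the transcription factor list made up 58 of the 67. On the other lists, 2 of 136 signalling genes began in a broad region, the Wnt receptor gene Fzd8 (4445 bp) and the Notch ligand gene Jag1 (4410 bp), and Ptch1, the Hedgehog receptor gene, was next with 3890 bp. Of 71 axon guidance genes there were 3, Sema6a (5269 bp), Efna5 (4960 bp) and Efnb2 (4476 bp), which code for a semaphorin and for ephrins. Of 113 chromatin regulators only Brd2 (4309 bp), a bromodomain gene, was among them, followed by Mll5 and Smarca2 (3861 bp). The cell cycle list had Mycn (5902 bp) as 1 of 38 genes, ahead of E2f3 (3874 bp) and Cdk6 (3722 bp), and the immediate early list had Jun (4530 bp) as 1 of 19, ahead of Egr1 and Jund (3382 bp).

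The lists of replication-dependent histones (67 genes), ribosomal proteins (80), RNA binding and splicing proteins (126) and clustered protocadherins (24) had none. Of all 22238 protein-coding genes 0.301% began in a broad region, a share at which a count of 0 is not informative for lists of this size. Their widest regions were at Hist3h2ba (2580 bp), Rpl7 (2599 bp), Hnrnpl (3172 bp) and Pcdhgc5 (3093 bp). Ribosomal protein genes had a region at the TSS of 77 of 80 genes, against 13599 of 22238 for all protein-coding genes, and 2 of the 77 reached 2000 bp. For all 22238 protein-coding genes the share with a region of at least 2000 bp was 8.49%, and for the ribosomal protein list it was 2.50%.

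All 8 of these regions had a peak in all 5 libraries, and 3 of them were picked after their values were seen. Mycn (chr12:12943935-12949836), a proto-oncogene of neural progenitors, scored 5.86, 7.47 and 7.09 in the DA and 5.35 and 3.91 in the 5-HT replicates. Jun (chr4:94716120-94720649), an AP-1 subunit gene, scored 11.6, 12.6 and 13.7 in the DA and 7.49 and 4.48 in the 5-HT replicates. Jag1 (chr2:136939500-136943909) scored 6.90, 7.06 and 6.66 in the DA and 4.72 and 3.49 in the 5-HT replicates. These values stood in the upper part of each library for Jun and near the middle for Jag1 in 5-HT replicate 2, at percentiles of 72.4 and 41.3 there.

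The other 50 genes were on no list. Among them were 4 non-clustered protocadherin genes, which code for cell adhesion proteins of neurons. They were picked after their values had been seen, and no list of such genes was counted. They were Pcdh10 (6582 bp), Pcdh7 (6422 bp), Pcdh17 (5819 bp) and Pcdh8 (4978 bp), with CpG ratios of 0.705, 0.771, 0.720 and 0.749. At Pcdh8 (chr14:80167362-80172339) the scores were 6.04, 6.75 and 7.72 in the DA and 5.14 and 6.89 in the 5-HT replicates, and at Pcdh10 (chr3:45179596-45186177) 6.43, 8.16 and 6.02 in the DA and 6.48 and 6.10 in the 5-HT replicates. The 4 differed in rank: in 5-HT replicate 2 the percentiles of Pcdh8, Pcdh10, Pcdh17 and Pcdh7 were 93.7, 90.1, 74.5 and 49.95, and in DA replicate 1 they were 63.5, 68.1, 67.1 and 36.3. Mex3b, an RNA-binding protein gene, had the widest region among the CpG-rich ones (chr7:90011920-90018944, 7025 bp, ratio 0.676), with scores of 7.89, 12.5 and 6.69 in the DA and 5.54 and 4.45 in the 5-HT replicates. Others with a role known in neurons or growth control were Tubb2b (tubulin), Marcks, Gpm6a, Alcam, Ptma, the imprinted gene Peg3, and the receptor genes Cxcr4, Sstr1 and Adra2a.

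The 5 highest CpG ratios were those of the pseudogene AY036118 (0.972), Zswim6 (0.956), Ptma (0.858), Ing1 (0.846) and Foxo3 (0.833). The 5 lowest were those of chrY:1787999-1793121 (0.0835), of the region at the pseudogene Gm13726 (chr2:77797474-77801824, 0.0898), of chr7:54838255-54845340 (0.0899) and chr4:146804170-146808373 (0.0913), and of the region at Mrgpra3 (chr7:54850455-54866802, 0.0927), a sensory neuron receptor gene. The region at AY036118 (chr17:39979929-39985785, 5857 bp) also had the highest scores of the 109, with 110, 167 and 92.3 in the DA and 61.7 and 29.4 in the 5-HT replicates. In DA replicate 2 this was the highest score of the whole library. To set both ends side by side, the central 150 bases of the regions with the highest and the lowest ratio are given from the plus strand of mm9, at chr17:39982782-39982931 and chrY:1790485-1790634, with CpG in capitals. There are 16 CpG in the first and 0 in the other.
AY036118: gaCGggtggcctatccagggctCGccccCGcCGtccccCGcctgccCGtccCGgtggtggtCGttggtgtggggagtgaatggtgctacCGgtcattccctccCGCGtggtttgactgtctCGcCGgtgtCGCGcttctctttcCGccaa
chromosome Y: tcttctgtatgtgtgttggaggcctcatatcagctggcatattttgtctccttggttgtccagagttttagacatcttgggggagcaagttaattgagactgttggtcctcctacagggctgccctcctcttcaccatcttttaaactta

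CpG-rich regions without a protein-coding TSS were rare. After their values had been seen, the 3 regions of this kind were AY036118, chr5:52503496-52508002 (4507 bp, ratio 0.739), which overlapped no annotated gene, and chr8:46019904-46024185 (4282 bp, ratio 0.794), 11377 bp from the start of the cadherin gene Fat1. The latter region scored 6.59, 8.14 and 7.43 in the DA and 6.40 and 4.89 in the 5-HT replicates, and the region on chromosome 5 6.52, 7.50 and 6.27 in the DA and 6.44 and 6.04 in the 5-HT replicates. Both were thus present in all 5 libraries. No TSS of any transcript lay in 33 of the 109 regions, and 20 overlapped no gene at all. The start of the lincRNA C130071C03Rik lay in a region of 5952 bp (ratio 0.435). None of 1005 RefSeq miRNA hairpins was found by exact match in a broad region, against 18 in the regions of 2000 to under 4000 bp. The latter are 2205 regions of 5471151 bp and the broad ones 109 of 742392 bp. The counts are therefore not directly comparable, and the 0 is not read as a result.

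The CpG-poor regions were concentrated in a few places of the genome. Runs of at least 3 broad regions with gaps under 100 kb, a definition made after the regions had been seen, held 30 of the 109 regions and 42.8% of their bases, on 6 chromosomes. In these runs 28 regions had a ratio under 0.3, none reached 0.6, and none held a transcription factor TSS. Chromosome Y had 29 regions in all, and 6 of them (20.7%) were broad, whereas chromosome 9 had 6085 regions and 0 broad ones.

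The widest region of all, chr11:3052074-3080221 (28148 bp, ratio 0.164), lay in Sfi1, a gene of a centriole protein, with exons over 4.59% of its bases. It scored 9.53, 6.90 and 9.46 in the DA and 4.36 and 3.65 in the 5-HT replicates. Next to it were chr11:3026627-3048908 (22282 bp, at Pisd-ps1, Gm11399 and Sfi1), with 11.0, 7.60 and 10.6 in the DA and 4.37 and 3.49 in the 5-HT replicates, and chr11:3080671-3100061 (19391 bp, with a TSS of Sfi1), with 9.04, 5.67 and 8.67 in the DA and 4.41 and 3.56 in the 5-HT replicates. These 3 regions covered 95.1% of the 73435 bp from the first to the last, and all had a peak in all 5 libraries.

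The run with the most members was on chromosome 2, where 11 broad regions and 7 narrower ones lay between positions 77710798 and 77865283 and the broad ones covered 69.1% of the span. Cwc22, a splicing factor gene, lies there in a segment known to vary in copy number between mouse strains, and copy number was not analysed here. The region at the TSS of Cwc22 (chr2:77781662-77789833, 8172 bp) scored 7.45, 18.2 and 9.80 in the DA and 9.43 and 7.06 in the 5-HT replicates, at percentiles of 96.6 and 94.2 in the latter. The widest region of this run, chr2:77763047-77778515 (15469 bp), scored 3.92, 5.35 and 3.97 in the DA replicates, 3.59 in 5-HT replicate 1 and 0 in replicate 2. A 5-HT peak was present at 6 of the 11 in replicate 1 and at 1 of the 11, the region of the TSS, in replicate 2. The median over the run was 3.87, 5.36 and 4.05 in the DA replicates and 3.37 and 0 in the 5-HT replicates.

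On chromosome 1, 5 broad regions covered 90.8% of the 51889 bp from 90125543 to 90177431, over Heatr7b1, Trpm8 and Hjurp, a histone chaperone gene of the centromere. The region chr1:90148754-90166799 (18046 bp), with starts of Heatr7b1 and Hjurp, scored 3.94, 3.55 and 4.26 in the DA and 4.38 and 3.29 in the 5-HT replicates. Its neighbour at another TSS of Hjurp, chr1:90170437-90177431 (6995 bp), scored 7.08, 10.5 and 15.9 in the DA and 18.9 and 15.1 in the 5-HT replicates. In both 5-HT libraries this was the second highest score among the broad regions, after AY036118. Ranked within each library, it stood at percentiles of 74.5, 91.4 and 98.7 in the DA and 99.95 and 99.89 in the 5-HT replicates. The remaining 3 regions had DA peaks only, as did chr7:38977686-38981942, the last of 3 regions over 1600014C10Rik on chromosome 7.

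How often the bases of a region recur in the genome was measured as the share of its 31-base words found more than once in mm9, on either strand. The share was at least 50% in 14 of the 109 broad regions, against 2.58% of all regions, and its median over the broad regions was 1.49%. All 14 had a CpG ratio under 0.3 and none held a protein-coding TSS. On chromosome Y the 5 regions from 2779602 to 2902563 had shares of 54.4 to 78.5%, and on chromosome 8 the 3 regions from 19916934 to 19987875 had 73.4 to 93.8%. The shares were 1.85 to 7.80% in the run at Cwc22, 0 to 1.41% in that at Hjurp and 10.6 to 26.4% in that at Sfi1. Only copies present in the assembled mm9 sequence are counted. A low share therefore does not show that a region is single-copy in the mice used. The part of recurring sequence in the width of these regions was not tested.

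The median percentile of the 14 regions of recurring sequence was 70.7, 73.7 and 92.9 in the DA replicates, and that of the 13 and 11 of them with a peak was 40.6 and 39.2 in 5-HT replicates 1 and 2. The examples were picked after their values were seen. The region chr1:85290394-85294603 (4210 bp, share 96.4%) stood at percentiles of 43.1, 46.7 and 54.5 in the DA and 11.4 and 31.2 in the 5-HT replicates. The region chrY:2779602-2785037 (5436 bp, share 78.5%) scored 25.8, 16.3 and 26.3 in the DA and 5.89 and 4.04 in the 5-HT replicates, and chrY:2874438-2896206 (21769 bp, share 69.5%) 17.2, 10.1 and 16.2 in the DA and 4.62 and 3.71 in the 5-HT replicates. The percentiles of the latter region were 99.2, 90.5 and 98.8 in the DA and 53.6 and 50.8 in the 5-HT replicates. Apart from chrY:2874438-2896206, the widest regions without any TSS were chrY:2848065-2861978 (13914 bp), chr2:77746695-77760396 (13702 bp), chr8:19938185-19950881 (12697 bp, share 93.8%) and chr2:77822996-77833577 (10582 bp).

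The 15 widest regions were completed by chr2:77710798-77724371 (13574 bp, at Gm13727), chr2:77735006-77746259 (11254 bp, with a TSS of a Cwc22 transcript that is not protein-coding), chr1:90133215-90143363 (10149 bp, in Heatr7b1) and chr1:85240788-85250285 (9498 bp, at C130026I21Rik, share 87.7%). Of these 4, the last and chr2:77735006-77746259 had a peak in 5-HT replicate 1, with scores of 3.74 and 3.37, and none had a peak in 5-HT replicate 2. Outside the runs, the region at Mrgpra3 (16348 bp) had a peak in all 5 libraries, with 4.04, 3.59 and 4.14 in the DA and 3.71 and 2.97 in the 5-HT replicates.

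All 109 broad regions had a peak in each of the 3 DA libraries. A peak was present at 97 of them (89.0%) in 5-HT replicate 1 and at 86 (78.9%) in replicate 2. The mean share was 100% ± 0 (SD, n = 3) in DA and 83.9% ± 7.14 (SD, n = 2) in 5-HT, a difference of 16.1 percentage points. The p was 0.2 in a two-sided exact permutation test over libraries, in which the smaller tail is doubled. This is the smallest p that the test allows with 3 against 2 libraries. By the same exact permutation test the difference was 16.3 points (p = 0.2) without the 14 regions of recurring sequence, 6.96 points (p = 0.2) without the runs and 2.90 points (p = 0.8) without the CpG-poor regions. All 11 regions that lack a peak in both 5-HT libraries are CpG-poor, so leaving these out removes them by construction. Over all regions the shares were 60.7% ± 17.9 and 23.4% ± 8.52, and over regions of 2000 to under 4000 bp 99.6% ± 0.371 and 89.6% ± 7.41. The union of peaks that sets the width depends on which libraries have a peak, so presence is not independent of the choice of the regions.

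The direction of this difference depended on how many peaks were counted. When each library was cut to its 22879 top-scoring peaks, as many as 5-HT replicate 2 has, DA replicates 1, 2 and 3 kept a peak at 67, 63 and 64 broad regions, and 5-HT replicates 1 and 2 at 74 and 86. The means were then 59.3% ± 1.91 in DA and 73.4% ± 7.78 in 5-HT, a difference of -14.1 points (p = 0.2, exact permutation test). Divided by the share of all regions with a peak, the share of broad regions was 2.50, 1.42 and 1.40 in the DA and 3.03 and 4.55 in the 5-HT replicates, a difference of -2.02. The share of broad regions is 100% in every DA library, so the DA ratios, and largely the sign of this difference, are set by the peak numbers. The number of peaks, the number of sorted cells and the cell type cannot be told apart with these libraries.

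A peak in all 5 libraries was found at 85 of the 109 broad regions (78.0%, 95% Wilson interval 69.3 to 84.7%), against 12.8% of all regions and 83.4% of the regions of 2000 to under 4000 bp. The count was 54 of the 109 when each library was cut to the same number of highest-scoring peaks. Peaks confined to DA, in all 3 DA libraries but no 5-HT library, were found at 11 (10.1%, 5.73 to 17.2%), against 13.4% of all regions and 3.81% of those of 2000 to under 4000 bp. This count was 0 when each library was cut to the same number of peaks, and 23 without 5-HT replicate 1. Of the 11 regions, 9 lay in runs, so the interval, which treats regions as independent, may be too narrow. The remaining 13 (11.9%) had their DA peaks joined by a peak of 1 5-HT library, against 8.49% of all regions and 11.7% of those of 2000 to under 4000 bp. This library was replicate 1 at 12 of them and replicate 2 only at chr7:38972595-38977211. There were 0 broad regions with peaks in both 5-HT libraries and no DA library, which occurred at 513 regions in all, and 0 with a peak in 1 library only, against 58671 (44.5%) of all regions.

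Presence in the 5-HT libraries went with CpG density and the TSS. Of the 64 regions with a protein-coding TSS 62 had a peak in all 5 libraries (96.9%), against 91.4% of such regions of 2000 to under 4000 bp, and the other 2, Lmx1b and Angpt2, lacked it in 5-HT replicate 2 only. Angpt2, an angiopoietin gene named here after its values were seen, scored 6.40, 8.35 and 7.38 in the DA replicates and 4.38 in 5-HT replicate 1. Of the 45 regions without a protein-coding TSS 23 had a peak in all 5 libraries and 11 in the DA libraries alone. Among CpG-rich regions the count in all 5 libraries was 44 of 45 and among CpG-poor ones 20 of 40. The CpG-poor regions differed among themselves. All 6 regions on chromosome Y (median ratio 0.133) and 11 of the 14 of recurring sequence (0.135) had a peak in all 5 libraries. In the run at Cwc22 (0.196) it was 1 of 11.

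The 11 regions with DA peaks only were all CpG-poor, with ratios of 0.0898 to 0.231, and none held a protein-coding TSS. There were 5 in the run at Cwc22, 3 in that at Hjurp and 1 in that over 1600014C10Rik, and the other 2 were chr7:54838255-54845340 (7086 bp), which overlaps Mrgpra3 11402 bp from its TSS, and chr5:15021092-15026358 (5267 bp, share of recurring words 72.0%). The widest, chr2:77746695-77760396, scored 3.70, 5.24 and 3.88 in DA replicates 1, 2 and 3. Next were Gm13727 with 4.29, 8.26 and 4.89, and chr2:77822996-77833577 with 3.76, 5.16 and 4.27. The median percentile of the 11 was 17.9, 43.2 and 51.1 in DA replicates 1, 2 and 3, whose peak lists differ in length, against 74.5, 82.4 and 86.4 for the 85 regions present in all 5.

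The others of this group in order of width were chr1:90133215-90143363 (3.95, 3.24 and 4.06 in DA replicates 1, 2 and 3), chr1:90125543-90132887 (7345 bp; 3.65, 3.49 and 4.08) and chr7:54838255-54845340 (3.93, 3.61 and 4.11). They were followed by chr2:77809494-77815661 (6168 bp), chr5:15021092-15026358, chr1:90143773-90148327 (4555 bp), Gm13726 (4351 bp) and chr7:38977686-38981942 (4257 bp). The lowest DA score of the 109 regions was the 3.24 of chr1:90133215-90143363 in replicate 2.

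Over the broad regions with a peak the median score was 6.35, 7.26 and 6.66 in the DA and 4.95 and 3.88 in the 5-HT replicates, against 5.12, 4.44 and 4.01 and 4.48 and 3.69 over all peaks of these libraries. Broad regions stood at a median percentile of 67.1, 79.1 and 80.6 in the DA and 61.5 and 56.9 in the 5-HT libraries. The regions of 2000 to under 4000 bp ranked slightly above them, at 69.2, 82.4 and 82.7 in the DA and 67.2 and 58.8 in the 5-HT libraries. Scores are written with up to 6 decimals. The last was other than 0 at 49.5%, 24.8% and 36.7% of broad regions in the DA and 48.5% and 47.7% in the 5-HT libraries. At peaks in regions under 1000 bp the share was 0.169%, 0.0501% and 0.125% in the DA and 0.157% and 0.0769% in the 5-HT libraries. Regions of 2000 to under 4000 bp lay between in every library, from 5.05% in DA replicate 2 to 19.8% in DA replicate 1. What sets the scores with such values apart was not tested.

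Marker genes were read at their promoters (1000 bp upstream to 100 bp downstream of a TSS) as a check of the cell types. All 14 DA markers had a peak in each DA library, and 11 and 9 of them in 5-HT replicates 1 and 2, with none at Th and Lmx1a in either 5-HT library. Of 9 markers of 5-HT neurons, 6, 8 and 6 had a peak in the DA and 7 and 3 in the 5-HT replicates. Tph2, which codes for an enzyme of serotonin synthesis, had scores of 9.91, 7.59 and 11.1 in the DA and 7.09 and 3.59 in the 5-HT replicates, while Fev, a defining 5-HT factor, had a peak only in 5-HT replicate 1 (3.88). Slc6a4 and Maob of the 5-HT list had the opposite pattern, with no peak in either 5-HT library. They scored 4.80, 6.56 and 3.76 (Slc6a4) and 3.72, 3.31 and 3.86 (Maob) in the DA replicates. Scores and peak numbers differ between libraries as a whole, so sums over a list are not comparable between libraries. The lists also differ in length, with 14 DA, 9 5-HT and 6 GABAergic genes, and Lmx1b is on both the DA and the 5-HT list. Sums of different lists in 1 library are therefore not on the same footing either, and are given as a description only. The summed score of the 5-HT list was 36.7, 44.3 and 36.2 in the DA and 33.9 and 14.9 in the 5-HT replicates, and that of the DA list 102.9, 113.1 and 100.1 in the DA and 51.7 and 30.4 in the 5-HT replicates.

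Markers of other cell types were mixed. A promoter peak was present at 5, 6 and 6 of 6 GABAergic markers in the DA and at 6 and 3 in the 5-HT replicates, with summed scores of 22.7, 25.8 and 23.4 in the DA and 25.2 and 10.3 in the 5-HT replicates. For radial glia and astrocytes it was 2, 3 and 2 of 4 and 2 and 2, for oligodendrocytes 1, 2 and 2 of 3 and 2 and 2, and for endothelial cells and pericytes 1, 2 and 2 of 3 and 1 and 0. Glutamatergic markers had 2, 2 and 2 of 3 and 2 and 0, noradrenergic 0, 1 and 1 of 3 and 0 and 0, and hindbrain position 2, 3 and 2 of 8 and 3 and 2. Microglial (Aif1, Cx3cr1) and erythroid (Hbb-bh1, Gata1) markers had no promoter peak in any library, nor had Gfap, Sox10, Pecam1, Dbh, Slc17a7, Hoxa2, Hoxb1, Hoxb2, Hoxb3 and Gbx2. Only 2 genes of these lists, En1 and Lmx1b, began in a broad region, and the part of other cell types in the broad regions was not tested.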

How the data were processed

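ATAC-seq of 3 DA and 2 5-HT replicates was analysed from the peak lists of the authors, who used Trimmomatic, FastQC, Bowtie2, Picard, MACS2, BEDOPS (peaks less than 100 bp apart merged) and HOMER on mm9 (no versions given). The deposited value is a peak score of unnamed scale, with 0 for no peak. Read depth is not given, so the precision of each library is unknown. Regions of at least 4000 bp were taken. Genes were named when their TSS lay in such a region or by the lists (24 transcription factor families, other functions, cell type markers), and the members and lists were chosen with earlier results of these data known. CpG ratios and 31-mer counts came from the mm9 sequence, and TSS from GENCODE. Groups were compared over libraries by a two-sided exact permutation test (smaller tail doubled). Shares carry 95% Wilson intervals, which cover counting error only and treat regions as independent, although some lie side by side in runs. Alternatives changed the width, peak number, libraries, TSS and gene list. RNA-seq was left out. Scripts (pandas 2.3.3, numba 0.67.0, SciPy 1.17.1 and NumPy 2.4.6 under Python 3.11.15) were tested on simulated data.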

Additional observations from a re-analysis of the deposited data

How the results depend on the processing

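Of the values under alternative settings, 21 moved and 2 reversed, and 42 stayed within the limits used. These limits were wide: counts within 1.5 times of each other passed, shares and ratios within their 95% interval, and differences between groups by their sign alone. With a minimum width of 3000 bp there were 408 regions, 344 with a peak in all 5 libraries, 24 with DA peaks only, 29 at a transcription factor TSS, a median CpG ratio of 0.611 and 74.5% with a protein-coding TSS. With 5000 bp there were 59 regions, 42 in all 5 libraries, 8 with DA peaks only, 1 at a transcription factor TSS, a ratio of 0.267 and 40.7% with a protein-coding TSS. With the same number of highest-scoring peaks in each library the difference in the share with a peak, DA minus 5-HT, reversed from 16.1 to -14.1 percentage points, with 54 regions in all 5 libraries and 0 with DA peaks only, and as a ratio to the share of all regions it reversed to -2.02, a sign set largely by the peak numbers since the DA shares are 100% (p = 0.2 for both, exact permutation test). The cause of the first reversal was not tested. The list without nuclear receptor, NFI, KLF, ETS and EGR families had 6 regions at a transcription factor TSS in place of 9. Transcripts of any kind gave a TSS in 69.7% of the regions. Leaving out each library in turn gave differences of 11.0 to 21.1 points and 11 to 23 regions with DA peaks only, with 23 when 5-HT replicate 1 was left out, and no test was made with a 5-HT library left out. With replicate number as a block the difference was 16.1 points. Alternatives chosen after seeing the data were the following. Without the regions of repeated 31-mers, 95 regions remained, 10 had DA peaks only and the difference was 16.3 points (p = 0.2, exact permutation test). Without the runs, 79 regions remained, 2 regions had DA peaks only, the ratio was 0.639, 74.7% held a protein-coding TSS and the difference was 6.96 points (p = 0.2, exact permutation test). Without CpG ratios under 0.3, 69 regions remained, 0 had DA peaks only (all 11 such regions are under this limit), 87.0% held a protein-coding TSS and the difference was 2.90 points (p = 0.8, exact permutation test). The alternative without soft-masked bases was not run, since the genome sequence is not soft-masked.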
